A study of Mus musculus with 16 samples.

Results

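The citric acid cycle and the routes by which pyruvate reaches it were followed through 32 genes in mouse soleus muscle during a gradual fall in oxygen. The 32 were listed by function: enzymes of the cycle with 2 cytosolic counterparts, the pyruvate dehydrogenase complex with its phosphatases and kinases, pyruvate carboxylase, the mitochondrial pyruvate carrier, and the malate-aspartate shuttle. All 32 had a probe that could be tested, out of 22145 features tested in all, 14107 of them named genes. The list is not the whole pathway, and 33 related genes outside it, such as the subunits of succinate dehydrogenase and the kinase gene Pdk4, are given near the end.

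Pyruvate from glycolysis enters the mitochondrion through the MPC1 and MPC2 carrier, and the pyruvate dehydrogenase complex then converts it to acetyl-CoA, which citrate synthase condenses with oxaloacetate. The complex is switched off when its kinases phosphorylate the E1 alpha subunit and switched on again when the phosphatases remove that phosphate. The malate-aspartate shuttle carries reducing equivalents of cytosolic NADH into the matrix, with malate and aspartate as the carriers, and the soleus, an oxidative postural muscle, depends on these steps for sustained work.

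Total RNA of the soleus of male mice was hybridised to Agilent arrays with 1 dye. Day 0 was the start of the protocol, and days 3 and 7 fell in the week during which oxygen was brought down by degrees to 10%. Day 14 ended a second week at that level. Days 0 and 14 had 4 RNA samples each, and days 3 and 7 had 3 each, on 16 arrays. The labels give the treatment as hypoxia for every array, day 0 included, and state neither strain nor age, nor whether each RNA sample came from its own mouse. P-values therefore measure only the spread between these samples, which may be technical in part. In whole muscle, fewer cells of a type and less RNA per cell cannot be told apart.

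The arrays lie on 2 slides. Slide 1 holds all day 3 and day 7 arrays and 1 array each of day 0 RNA samples 1 and 2, and slide 2 holds 1 array of each day 0 and each day 14 RNA sample. Levels are given as log2 intensity minus the 75th percentile of the array, with slide 1 brought to the scale of slide 2 through the 2 RNA samples run on both. They describe 1 probe across samples and cannot be set against the level of another gene. Every comparison of day 3 or day 7 with day 0, and of day 14 with day 7, therefore rests on the 2 day 0 arrays of slide 1. Between 37.9% and 55.3% of spots per array were well above background, and 30 of the 32 probes were so on all 16 arrays. The exceptions were Pdk3, with 9 arrays, and Pdpr, with 5. The summed level of 8 genes that define skeletal muscle, Acta1 and Ckm among them, lay between 11.5 and 11.9 in the 14 RNA samples. Like the other summed levels below, it is weighted to the brightest probes and does not show that each gene was steady. The median difference of the 8 genes from day 0 was -0.20 at day 3, -0.26 at day 7 and -0.17 at day 14. Day 3 RNA sample 4 stood apart from the other day 3 samples over these 32 genes, and results that involve it are given with and without it.

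The windows upstream of the genes that passed the test at day 7 and had an entry in the RefSeq promoter table (build GRCm38.p6) are printed so that the genes that moved can be seen at sequence level. Each is the 250 bases before the annotated start of a transcript, on the strand of the gene. Capitals mark a match to any of 4 short motifs (TCAAGGTCA, GCGCATGC, CCGGAAG and ACGTG, on either strand), and of the 6 windows only the first of 2 for Mpc1 holds one. GCGTG, another form of the core of the hypoxia response element, was not searched and is not marked.
Mpc1, first start, at chr17:8283537-8283786 on the plus strand: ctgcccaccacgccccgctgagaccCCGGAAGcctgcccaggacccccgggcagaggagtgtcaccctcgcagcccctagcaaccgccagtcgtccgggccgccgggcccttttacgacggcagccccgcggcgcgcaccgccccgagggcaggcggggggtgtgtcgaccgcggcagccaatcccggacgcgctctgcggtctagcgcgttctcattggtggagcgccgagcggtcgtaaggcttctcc
Mpc1, other start, at chr17:8284204-8284453 on the plus strand: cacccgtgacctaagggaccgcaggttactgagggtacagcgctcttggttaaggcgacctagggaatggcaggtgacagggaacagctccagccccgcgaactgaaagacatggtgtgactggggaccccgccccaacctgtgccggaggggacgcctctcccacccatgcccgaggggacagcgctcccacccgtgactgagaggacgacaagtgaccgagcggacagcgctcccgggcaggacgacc
Fh1 at chr1:175625636-175625885 on the minus strand: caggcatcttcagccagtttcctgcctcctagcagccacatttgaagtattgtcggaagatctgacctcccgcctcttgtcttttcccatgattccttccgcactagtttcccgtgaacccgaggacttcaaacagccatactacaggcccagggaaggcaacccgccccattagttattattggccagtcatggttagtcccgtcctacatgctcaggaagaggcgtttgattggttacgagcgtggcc
Mdh2 at chr5:135778399-135778648 on the plus strand: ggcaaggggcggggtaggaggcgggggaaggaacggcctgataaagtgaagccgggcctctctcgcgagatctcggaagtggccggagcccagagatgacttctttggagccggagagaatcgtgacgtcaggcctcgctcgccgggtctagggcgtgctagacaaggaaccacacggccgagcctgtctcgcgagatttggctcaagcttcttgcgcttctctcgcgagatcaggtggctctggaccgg
Idh2 at chr7:80115351-80115600 on the minus strand: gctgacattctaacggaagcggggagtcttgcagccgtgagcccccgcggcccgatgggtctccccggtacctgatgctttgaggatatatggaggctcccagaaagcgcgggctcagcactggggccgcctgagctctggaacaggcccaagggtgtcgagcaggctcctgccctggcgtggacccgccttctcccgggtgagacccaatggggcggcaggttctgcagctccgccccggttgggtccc
Got2 at chr8:95888402-95888651 on the minus strand: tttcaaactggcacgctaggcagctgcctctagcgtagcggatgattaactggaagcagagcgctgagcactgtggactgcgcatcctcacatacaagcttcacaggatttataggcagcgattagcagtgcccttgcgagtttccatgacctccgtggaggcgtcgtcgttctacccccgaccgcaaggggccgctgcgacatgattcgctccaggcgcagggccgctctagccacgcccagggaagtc

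Day 7 against day 0 asks how the genes stood when oxygen had just reached its lowest level. Pdp1, which encodes the main catalytic phosphatase that activates pyruvate dehydrogenase in muscle, rose 2.64-fold. Mpc1, of the pyruvate carrier, and the cycle enzyme genes Fh1, Mdh2 and Idh2 rose 1.49-fold to 1.70-fold, and Got2, the mitochondrial aspartate aminotransferase of the shuttle, fell to 0.70 of its day 0 level. No other gene of the 32 passed the test. A gene passed at an adjusted p under 0.05 in limma's moderated test with Benjamini-Hochberg adjustment over all 22145 features, and each difference is the later day minus the earlier one on the log2 scale, with its standard error (SE).

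Among all features, 15.6% were called higher at day 7 and 8.15% lower, so 5 of 32 higher (15.6%) and 1 of 32 lower (3.12%) are not more than the background share in either direction. The median difference of the 32 genes was 0.16, and that of all features was 0.09. When each array was scaled over the probes above background on all arrays, the median of all features shifted from 0.09 to -0.06 and the members' split became 5 higher and 4 lower, beside 9.49% of all features higher and 12.2% lower. Relative to those medians, Pdp1 stood 1.31 higher under both scalings and Got2 fell by 0.61 under both. This sameness was fixed in advance, because the scaling moves every feature of an array by the same amount. It is not a check of either gene. Quantile normalization gave 5 higher and 3 lower, beside 12.2% and 8.87% of all features. From the authors' deposited series values came 5 higher and 2 lower, beside 11.5% and 8.9%. Within slide 1 alone, where 2 day 0 arrays face 3 day 7 arrays, Pdp1 alone of the 32 passed, beside 9.45% of all features in either direction. The differences of the 6 genes lay between -0.51 and 1.41 there, close to those with both slides. That closeness is largely built in, because the fit with both slides rests on the same 2 day 0 arrays of slide 1. It is not a check. With the day 0 arrays of slide 1 left out, where day and slide cannot be told apart, Pdp1 and Pdpr passed, beside 17.5% of all features. The same 2 passed with no slide term, beside 14.8% of all features.

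**Figure D1:**
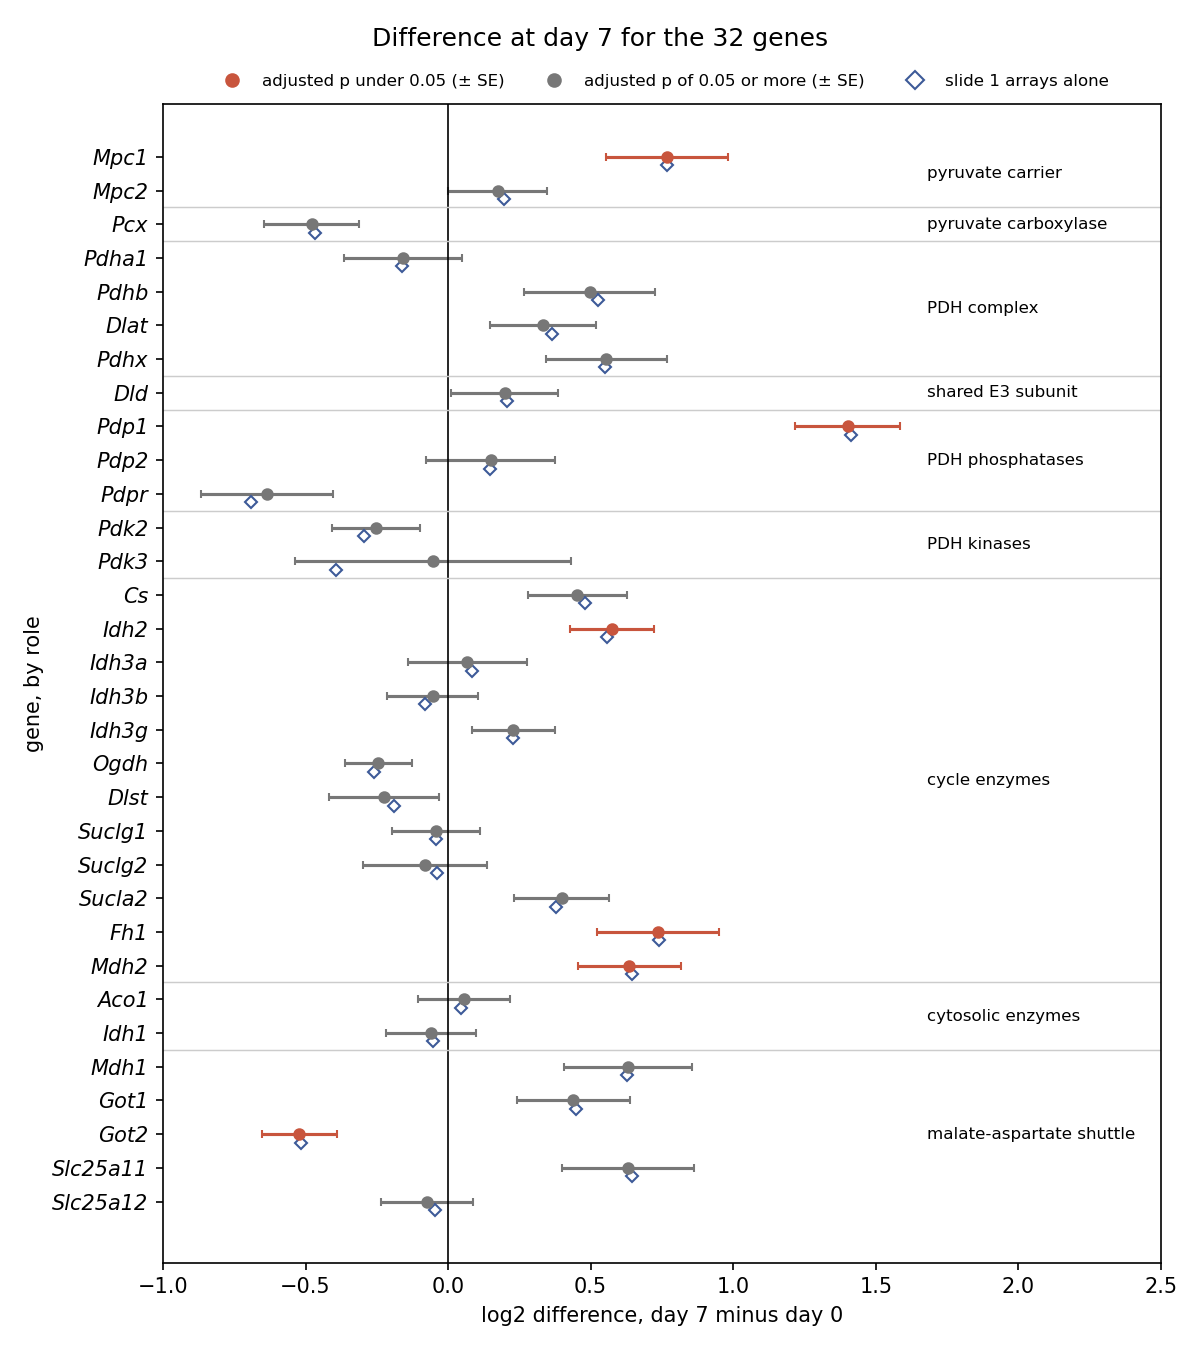
The log2 difference of day 7 from day 0 is plotted for the 32 genes, grouped by role, as filled points with SE bars (orange where the adjusted p was under 0.05, grey elsewhere), with the value from slide 1 alone as an open diamond. Pdp1 at 1.40 lies farthest from 0, Got2 at -0.52 is the only gene that fell and passed, and the diamonds lie near the filled points for all genes but Pdk3. Both values of a gene rest largely on the same slide 1 arrays.

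Pyruvate entry through the carrier was measured by Mpc1 and Mpc2. Mpc1 read 7.33, 7.30, 7.14 and 7.49 at day 0 and 8.08, 8.25 and 7.91 at day 7. All 3 day 7 samples lay above all 4 day 0 samples. The day 14 samples read 7.54, 7.62, 7.62 and 7.40, below all of day 7 and overlapping day 0. The day 7 difference was 0.77 (SE 0.21, adjusted p = 0.021). It was 0.77 within slide 1 alone (adjusted p = 0.093) and 0.36 with the day 0 arrays of slide 1 left out (adjusted p = 0.20). The arrays of day 0 RNA samples 1 and 2 read 6.99 and 6.83 on slide 1 and 7.26 and 7.37 on slide 2 before the slide was taken into account. The other probe for Mpc1 gave 0.14 (adjusted p = 0.57), so the rise was seen with only 1 of 2 probes. Mpc2, the partner without which the carrier does not form, differed by 0.17 (SE 0.17, adjusted p = 0.51).

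Inside the pyruvate dehydrogenase complex no subunit gene passed the test at day 7. Pdhb, of the E1 beta subunit, differed by 0.50 (SE 0.23), Dlat, of the E2 core, by 0.33 (SE 0.19), and Pdhx, of the protein that tethers E3, by 0.56 (SE 0.21). Their adjusted p-values were 0.14, 0.22 and 0.074. Pdha1, of the E1 alpha subunit that carries the regulatory phosphate, differed by -0.16 (SE 0.21, adjusted p = 0.63). Dld, the E3 subunit that this complex shares with 2-oxoglutarate dehydrogenase, differed by 0.20 (SE 0.19). Pcx, pyruvate carboxylase, which makes oxaloacetate directly from pyruvate, differed by -0.48 (SE 0.17, adjusted p = 0.053). Its 3 day 7 samples, at 3.19, 2.95 and 3.16, lay below the 4 day 0 samples, whose lowest was 3.39.

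The regulators of the complex held the clearest change. Pdp1 read 2.33, 2.31, 2.30 and 2.43 at day 0, and 2.75, 2.57 and 1.92 at day 3. It reached 3.94, 3.69 and 3.60 at day 7 and was at 2.65, 2.69, 2.47 and 2.59 at day 14. The day 7 samples lay above every sample of the other days, and the day 14 samples lay slightly above those of day 0. The day 0 mean was 2.34 ± 0.06 (SD, n = 4) and the day 3 mean 2.41 ± 0.44 (SD, n = 3). The day 7 mean was 3.74 ± 0.17 (SD, n = 3) and the day 14 mean 2.60 ± 0.10 (SD, n = 4). The day 7 difference of 1.40 (SE 0.18, adjusted p = 0.0016) had a 95% interval from 1.0 to 1.8. It was 1.41 within slide 1 alone (adjusted p = 0.040) and 0.92 with the day 0 arrays of slide 1 left out (adjusted p = 0.0034). It passed without each of the 14 RNA samples in turn, with differences from 1.30 to 1.47. All 3 probes for Pdp1 rose, by 1.40, 1.31 and 0.89.

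Against day 3, Pdp1 was 2.51-fold higher at day 7 (difference 1.33, SE 0.17, adjusted p = 0.0043). It was the only one of the 32 called higher in that comparison, in which 0.447% of all features were higher and 0.23% were lower. Within slide 1 alone the adjusted p was 0.12. From day 7 to day 14 Pdp1 fell by 1.14 on the log2 scale (SE 0.21, adjusted p = 0.022) and was again the only one of the 32 called, with 1.12% of all features called higher and 1.18% called lower. That fall missed the threshold without day 0 RNA sample 1 or 2, or without day 7 RNA sample 1 or 2, with adjusted p-values up to 0.22. Its size stayed between -1.21 and -1.04 over the 14 left-out samples.

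Of the other regulators, Pdp2, the second catalytic phosphatase, differed by 0.15 at day 7 (SE 0.23, adjusted p = 0.68). Pdpr, the regulatory subunit that binds the catalytic phosphatase, differed by -0.64 (SE 0.23, adjusted p = 0.062), with the probe well above background on 1 of 3 day 7 arrays, 2 of 6 day 0 arrays and none of 4 at day 14. Pdk2, the widely expressed kinase, read 5.68, 5.57, 5.37 and 5.58 at day 0 and 5.24, 5.04 and 4.95 at day 3. These groups did not overlap, but the difference of -0.48 (SE 0.15) had an adjusted p of 0.078. Pdk3 was not well above background on any of the 4 day 14 arrays, and no fold is given for it there.

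**Figure D2:**
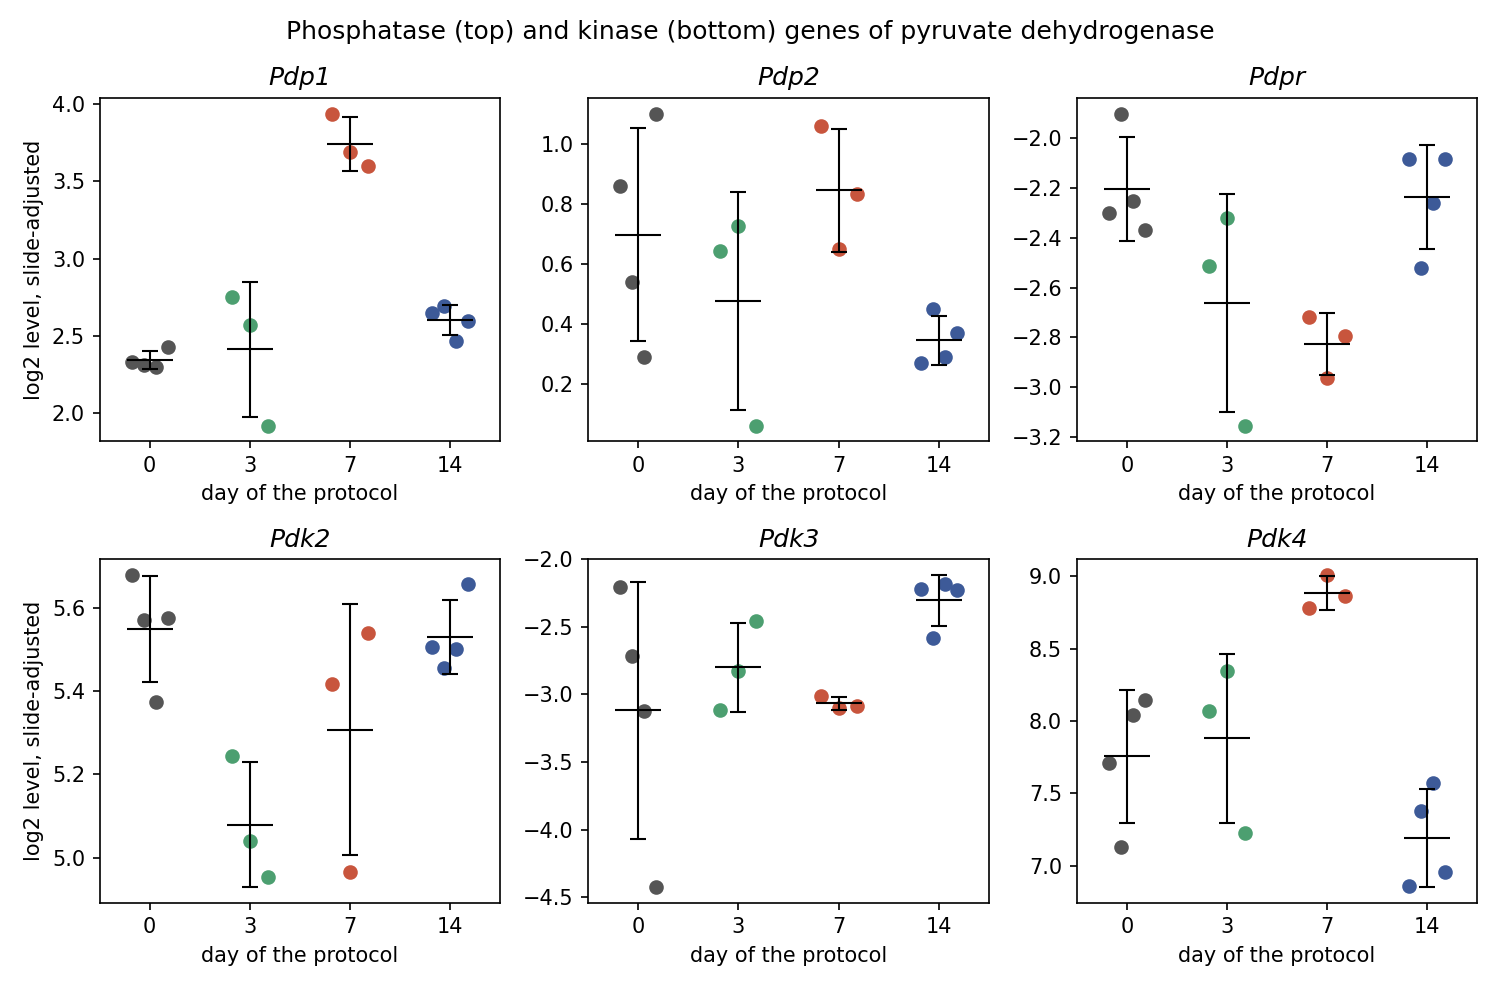
Slide-adjusted log2 levels of phosphatase genes (top) and kinase genes (bottom) of pyruvate dehydrogenase are plotted by day, 1 point per RNA sample, with bars for the mean and SD; each panel has its own axis. Pdp1 and Pdk4 have their 3 highest samples at day 7, while the points of Pdp2, Pdk2 and Pdk3 overlap between day 0 and day 7.

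The cycle enzymes split by gene. Idh2, the mitochondrial NADP-dependent isocitrate dehydrogenase, read 9.08, 9.05, 8.98 and 9.02 at day 0 and 9.67, 9.68 and 9.49 at day 7. Its day 7 samples were all above its day 0 samples, by 0.58 in the fit (SE 0.15, adjusted p = 0.015). Fh1, fumarase, read 6.45, 6.41, 6.37 and 6.52 at day 0 and 7.26, 7.35 and 6.92 at day 7. These groups did not overlap either, and the difference was 0.74 (SE 0.21, adjusted p = 0.025). Mdh2, the matrix malate dehydrogenase that closes the cycle and also serves the shuttle, read 9.50, 9.39, 9.38 and 9.57 at day 0. At day 7 it read 10.2, 10.3 and 9.79, above all day 0 samples, with a difference of 0.64 (SE 0.18, adjusted p = 0.023). Within slide 1 alone the 3 differences were 0.56, 0.74 and 0.64, with adjusted p-values of 0.090, 0.11 and 0.10. With the day 0 arrays of slide 1 left out they were 0.28, 0.39 and 0.26, and none passed. The calls for Fh1, Mdh2 and Mpc1 also missed the threshold without day 0 RNA sample 1 or 2 and without day 7 RNA sample 1 or 2, and that for Idh2 without day 0 RNA sample 2 or day 7 RNA sample 2. Over the 14 left-out samples the differences of the 4 genes stayed between 0.47 and 0.87.

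Cs, citrate synthase, the usual marker of mitochondrial content, read 8.66, 8.49, 8.49 and 8.88 at day 0 and 9.16, 9.12 and 8.95 at day 7. The groups did not overlap, and the difference of 0.45 (SE 0.17) had an adjusted p of 0.074. The 3 subunits of the NAD-dependent isocitrate dehydrogenase differed by 0.07 (Idh3a), -0.05 (Idh3b) and 0.23 (Idh3g). The largest size that their 95% intervals allow is 0.54, for Idh3g. Sucla2, the ADP-forming subunit of succinyl-CoA synthetase, differed by 0.40 (SE 0.17, adjusted p = 0.10), while its shared alpha subunit Suclg1 differed by -0.04 and the GDP-forming Suclg2 by -0.08. Ogdh and Dlst, the E1 and E2 subunits of 2-oxoglutarate dehydrogenase, differed by -0.25 and -0.23 and did not pass. The 3 probes for Ogdh did not have 1 sign, at -0.25, 0.22 and 0.06. The cytosolic Aco1, also the iron regulatory protein 1, and Idh1, which makes cytosolic NADPH, differed by 0.06 and -0.06, each with an SE of 0.16.

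In the malate-aspartate shuttle, Got2 was called lower at days 3 and 7, while Mdh2 was called higher at day 7. Got2 read 6.88, 6.82, 6.71 and 7.05 at day 0, then 6.52, 6.32 and 6.08 at day 3. It read 6.46, 6.20 and 6.36 at day 7 and 6.70, 6.66, 6.75 and 6.73 at day 14. The day 3 and day 7 samples lay below every day 0 and every day 14 sample. Got2 fell by 0.56 at day 3 (SE 0.13, adjusted p = 0.031) and by 0.52 at day 7 (SE 0.13, adjusted p = 0.014). The same 2 day 0 RNA samples read 7.34 and 7.24 on slide 1 and 6.85 and 6.84 on slide 2 before the slide was taken into account, while the day 7 arrays read 6.90, 6.64 and 6.80. With the day 0 arrays of slide 1 left out, the differences were -0.12 at day 3 and -0.09 at day 7, so the size of the fall depends on the slide term. Within slide 1 they were -0.55 and -0.51, with adjusted p-values of 0.15 and 0.079. The day 7 call also missed the threshold without day 0 RNA sample 1 or 2 or day 7 RNA sample 2, with adjusted p-values of 0.096, 0.094 and 0.057.

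The other genes of the shuttle were not called. Mdh1, the cytosolic malate dehydrogenase, differed by 0.63 at day 7 (SE 0.22, adjusted p = 0.058), and Slc25a11, the malate and 2-oxoglutarate exchanger, by 0.63 (SE 0.23, adjusted p = 0.064). For both, the day 7 samples lay above all day 0 samples. Got1, the cytosolic aminotransferase, differed by 0.44 (SE 0.20, adjusted p = 0.12) with overlapping groups. Slc25a12, the calcium-regulated aspartate and glutamate carrier, differed by -0.07 (SE 0.16).

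**Figure D3:**
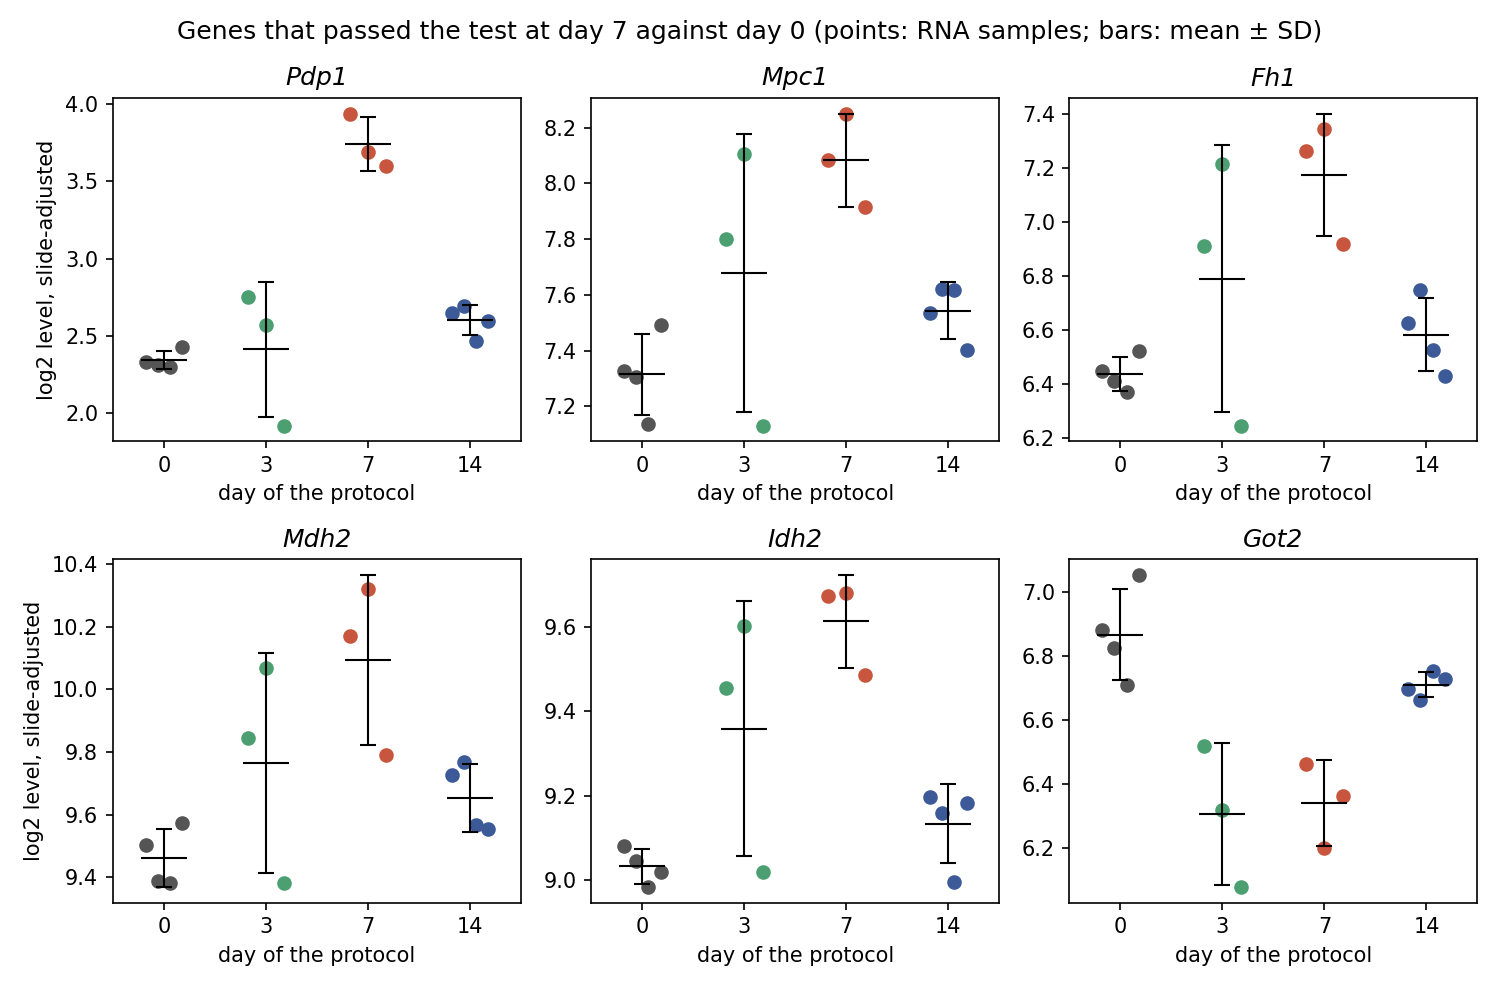
Slide-adjusted log2 levels of the 6 genes called at day 7 against day 0 are plotted by day, 1 point per RNA sample, with bars for the mean and SD; each panel has its own axis. The day 7 points of Pdp1 (3.60 to 3.94) stand above all others, those of Mpc1, Fh1, Mdh2 and Idh2 stand above day 0 and overlap day 3, and those of Got2 stand below day 0 and day 14.

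**Figure D4:**
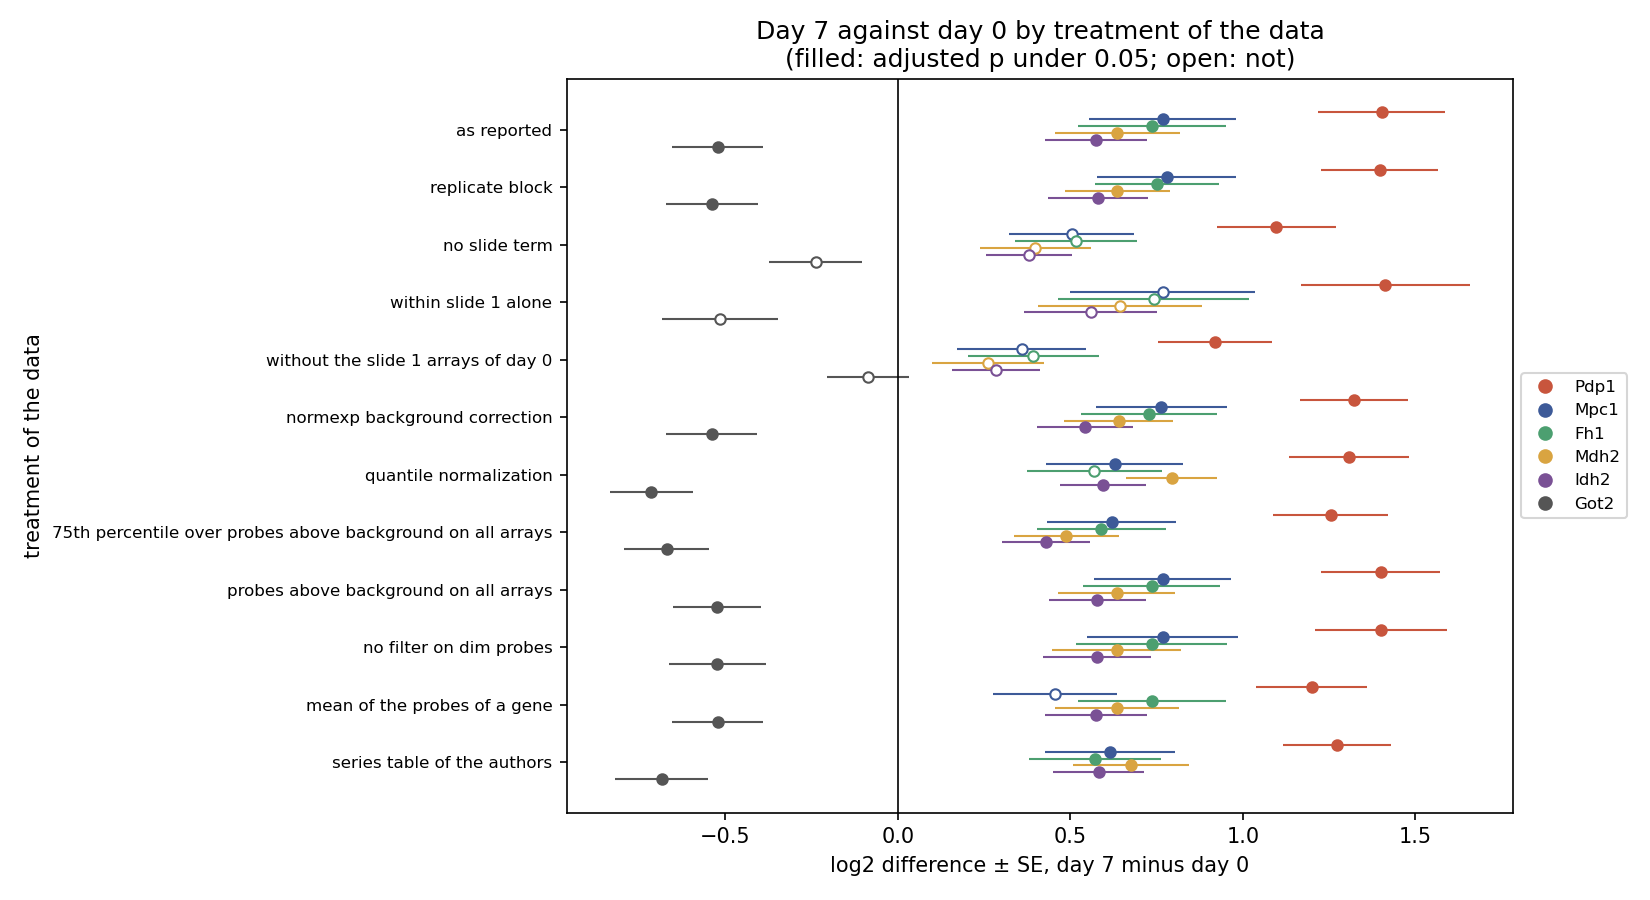
The day 7 minus day 0 difference of the 6 genes, with SE bars, is plotted under 12 treatments of the data, with filled points where the adjusted p was under 0.05. Pdp1 is filled throughout, at 0.92 to 1.41, while the other genes turn open in the 3 other treatments of the slide, with Fh1 also open under quantile normalization and Mpc1 under the mean of the probes.

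Day 3 against day 0 asks what had moved while oxygen was still falling. Got2 was the only one of the 32 called lower by limma, of 5 with an unadjusted p under 0.05, and none was called higher, where 1 (Idh2) had an unadjusted p under 0.05. Of all features, 2.27% were called higher and 3.82% lower. The median difference of the 32 genes was -0.07, against 0.06 over all features. The call for Got2 missed the threshold without day 0 RNA sample 1 or 2, and without day 3 RNA sample 2 or 4, with differences from -0.66 to -0.44 over the 14 left-out samples.

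The day 3 samples did not behave alike over these genes. Day 3 RNA sample 4 was lower than both other day 3 samples for 29 of the 32 genes, against 49.8% of all features, and was the lowest of all 14 RNA samples for 24. Its median over the 32 genes lay 0.41 below the day 0 mean, while those of RNA samples 1 and 2 lay 0.10 and 0.14 above it. Mpc1, for example, read 7.80 and 8.10 in samples 1 and 2 and 7.13 in sample 4. For Dlst the readings were 5.44, 5.46 and 4.76, and for Pdha1 5.27, 5.32 and 4.52. The summed level of 8 macrophage and monocyte markers was 5.54 in this sample and 4.23 and 4.68 in the other 2, and its 5 erythroid markers summed to 6.72 against 6.88 and 7.59. Adipocyte markers summed to 7.95 against 8.43 and 8.49, and slow-fibre markers to 12.96 against 13.15 and 13.24. Fast-fibre markers summed to 13.17 against 13.35 and 13.37, and muscle-defining genes to 11.5 against 11.62 and 11.69. Fibroblast markers summed higher, to 9.671 against 8.94 and 9.535, and endothelial markers, at 7.1, lay between the other 2 samples. The part of these lists in the members' values was not tested.

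Without day 3 RNA sample 4, Mpc1, Fh1 and Idh2 were called higher at day 3, by 0.64, 0.63 and 0.49 (adjusted p = 0.035, 0.038 and 0.036), beside 3.8% of all features called higher. These are 9.38% of the 32. With all samples, the other probe for Mpc1 differed by -0.08 at day 3. Sample 4 was singled out by its low values in these same 32 genes. Calls made without it, at day 3 or day 7, are therefore not separate support for a rise. Got2 was not called at day 3 without that sample. The same omission lowered the spread shared by all days in the fit, and 10 genes were called higher at day 7, beside 17.1% of all features. The 5 added to those above were Cs (0.45), Mdh1 (0.63), Pdhx (0.56), Slc25a11 (0.63) and Sucla2 (0.40), and Pdpr was called lower with Got2, beside 9.05% of all features. These differences were close to those with all samples, and their errors were smaller, for Cs an SE of 0.13 against 0.17. Leaving out day 0 RNA sample 2 instead left Pdp1 as the only gene called higher at day 7, beside 0.235% of all features.

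**Figure D5:**
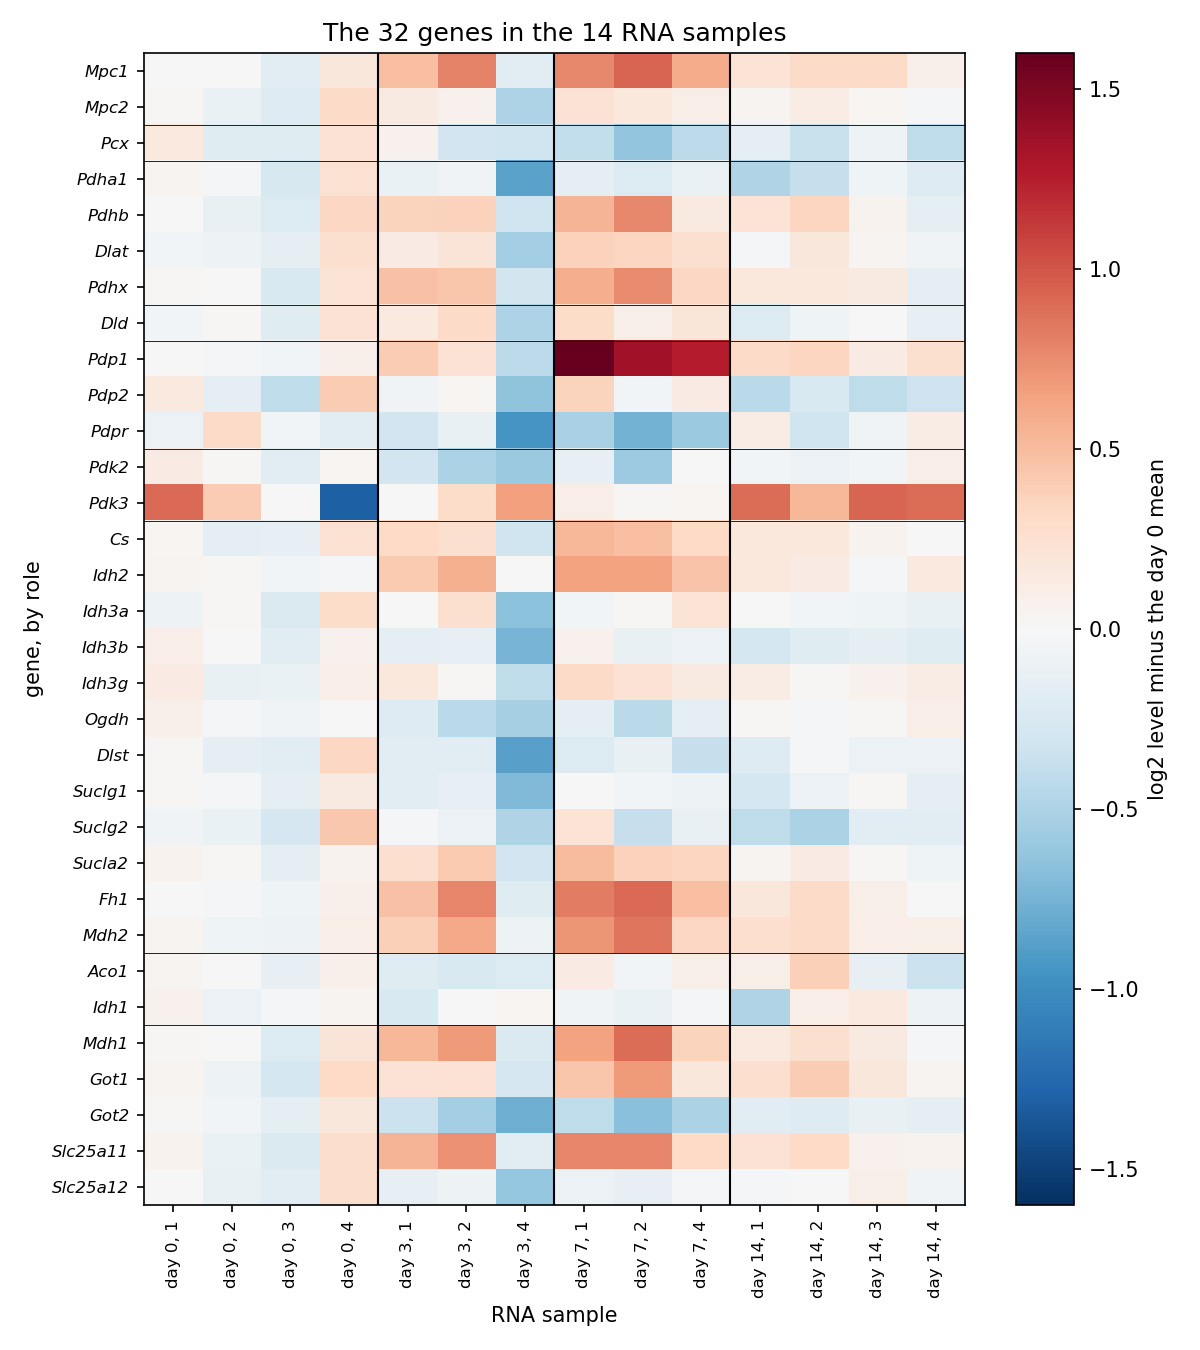
Each cell is the log2 level of 1 of the 32 genes in 1 of the 14 RNA samples minus the day 0 mean of that gene, red above and blue below. Day 3 RNA sample 4 forms the bluest column, Pdp1 at day 7 is the reddest stretch, and Mpc1, Fh1, Mdh2, Mdh1 and Slc25a11 are red in day 3 samples 1 and 2 and in all day 7 samples.

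Between day 3 and day 7, 29 of the 32 genes (90.6%) and 57.8% of all features had a positive difference, with medians of 0.27 and 0.05. Without day 3 RNA sample 4 the count was 22 (68.8%, against 53.1% of all features) and the median 0.08, against 0.02. For 6 genes (18.8%) all 3 day 7 samples lay above day 3 RNA samples 1 and 2, as for 15.8% of all features, and for 2 genes (6.25%) they lay below, as for 13.1%.

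Day 14 against day 0 asks whether differences remained after a week at the lowest oxygen, and is the comparison in which both groups share slide 2. None of the 32 was called by limma, and none had an unadjusted p under 0.05, beside 0.294% of all features called higher and 0.108% called lower. The median difference was 0.02, and 0.06 over all features. The smallest p-values belonged to Pdp2 and Pcx. Pdp2 read 0.86, 0.54, 0.29 and 1.1 at day 0 and 0.27, 0.45, 0.29 and 0.37 at day 14, with a difference of -0.35 (SE 0.18, adjusted p = 0.29). Pcx read 3.74, 3.39, 3.39 and 3.82 at day 0 and 3.44, 3.22, 3.50 and 3.18 at day 14, with a difference of -0.25 (SE 0.13, adjusted p = 0.32). In both the groups overlapped. For the genes that had risen at day 7, the 95% intervals at day 14 were -0.14 to 0.59 for Mpc1, -0.06 to 0.58 for Pdp1, -0.22 to 0.51 for Fh1, -0.11 to 0.51 for Mdh2 and -0.16 to 0.35 for Idh2. Differences inside these intervals are not excluded with this number of samples.

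Over the 4 days together, Pdp1 (adjusted p = 0.0040) and Got2 (adjusted p = 0.034) passed limma's F-test, beside 17.0% of all features. That is 6.25% of the 32.

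The related genes were read on the same scale, and 31 of 33 could be tested (not Ogdhl and Nnt). At day 7, 7 (22.6%) were called higher and 2 (6.45%) lower, beside 15.6% and 8.15% of all features. The 3 with the smallest p among those called higher were Acss1, which makes acetyl-CoA from acetate in the matrix (1.18, SE 0.18), Me1, the cytosolic malic enzyme (0.68, SE 0.11), and Gpd2, the mitochondrial arm of the glycerol phosphate shuttle (0.57, SE 0.12). The 2 called lower were Slc25a10, the dicarboxylate carrier (-1.37, SE 0.33), and Slc25a1, the citrate carrier (-0.90, SE 0.28). The probe for Slc25a10 was well above background on 2 of 3 day 7 arrays and 2 of 6 day 0 arrays, so its size is limited by background. At day 3, Gpd2, Acly, the citrate lyase that returns citrate to acetyl-CoA in the cytosol, and Me1 were called higher, by 0.64, 0.60 and 0.40, which is 9.68% of the 31 beside 2.27% of all features. No related gene passed at day 14 against day 0.

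Pdk4, the kinase induced in muscle by fasting and fat use, opposes the phosphatase of Pdp1. It read 7.71, 7.13, 8.04 and 8.15 at day 0 and 8.78, 9.01 and 8.86 at day 7, with no overlap. It then read 6.86, 7.38, 7.58 and 6.96 at day 14. It rose by 1.18 at day 7 (SE 0.34, adjusted p = 0.025) and fell by 1.69 from day 7 to day 14 (SE 0.40, adjusted p = 0.045). Me1 and Acss1 also fell from day 7 to day 14, by 0.77 and 1.30, so that 9.68% of the 31 fell beside 1.18% of all features. The day 7 rise of Pdk4 missed the threshold without day 0 RNA sample 1 or 2 or day 7 RNA sample 1 or 2 (adjusted p from 0.052 to 0.19), and those of Acss1, Me1 and Gpd2 missed it without day 0 RNA sample 2 (0.064, 0.067 and 0.089). The fall of Pdk4 was past the threshold without day 3 RNA sample 2 or 4 or day 7 RNA sample 4, and in none of the other fits that left out 1 RNA sample. The day 7 falls of Slc25a10 and Slc25a1 missed it without day 0 RNA sample 1 or 2, and that of Slc25a1 also without day 7 RNA sample 1 or 2. The day 3 rises of Gpd2 and Acly missed it without day 0 RNA sample 1 or 2 or day 3 RNA sample 2, and that of Me1 without most single samples. The falls of Me1 and Acss1 missed it without day 0 RNA sample 2, and that of Me1 also without day 0 RNA sample 1. With the day 0 arrays of slide 1 left out, the day 7 differences of Pdk4, Slc25a10 and Slc25a1 were 0.59, -0.76 and -0.20, and the day 3 differences of Acly and Me1 were 0.35 and 0.09, and none of these 5 passed.

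Markers of fibre type and of other cells were measured beside these changes. The myosin genes Myh7 and Myh2, of slow and fast oxidative fibres, differed by 0.15 (SE 0.11) and 0.18 (SE 0.16) at day 7, and Myh1 by 0.75 (SE 0.37), and none passed. Myh4, of the fastest fibres, read 9.77 to 10.1 at day 3 and 4.81 to 10.3 at day 7, against 3.12 to 7.19 at day 0, and did not pass. Pvalb, a calcium buffer of fast fibres, rose by 1.65 at day 7 (SE 0.51, adjusted p = 0.032). It was the only one called of 11 fast-fibre markers, of which 8 were above 0 and 3 below. Those below, named here after their values were seen, were Atp2a1 (-0.82), Mylpf (-0.52) and Tnnt3 (-0.18). Of 10 slow-fibre markers 3 were above 0 at day 7 and 7 below. Their median was -0.10, their range was -1.05 to 0.15, and 3 were called lower. Of 8 muscle-defining genes 2 were called lower at day 7 and 1 higher. Among all features 8.15% were called lower at day 7 and 15.6% higher. The summed macrophage markers lay between 3.77 and 3.95 at day 7 and between 4.30 and 4.79 at day 0, with 4 of 8 lower. The summed erythroid markers lay between 9.30 and 10.3 at day 14 and between 7.48 and 7.92 at day 7, with 5 of 5 higher at day 14. From day 7 to day 14, 1.12% of all features were called higher. Of the other lists, 1 endothelial marker was higher and 2 lower at day 7, 1 fibroblast marker was higher and 1 lower, and no adipocyte marker passed. At day 3, all 8 adipocyte markers were above 0, with a median of 1.17 and 1 called higher, and their summed level lay between 7.95 and 8.49 against 7.68 to 7.81 at day 0. One of the 8, Lep, was well above background on no day 0 array and on 3 of 16 arrays in all, so its value is limited by background. All 5 erythroid markers were below 0 at day 3, with 2 called lower, and summed to 6.72 to 7.59 against 7.72 to 8.26. Also lower at day 3 were 2 muscle-defining genes and 1 marker each of slow fibres, fast fibres and endothelium, and no macrophage or fibroblast marker passed. At that day 2.27% of all features were called higher and 3.82% lower. The part of these markers in the members' values was not tested.

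Promoter windows were found for 30 of the 32 genes, in 39 windows because some genes have several starts. Pdp1 and Idh3a were not among them. The 250 bases before each start were searched on both strands for 4 motifs, which were compared with 32851 windows of the same length. ACGTG, a form of the core of the hypoxia response element, stood in 14 of 39 windows (35.9%) and 16.6% of all windows. By gene it stood in 9 of 30 (30.0%) and in 18.5% of all genes. Those 9 were Idh3g, Mdh1, Ogdh, Pcx, Pdhb, Pdk2, Pdk3, Pdp2 and Pdpr. The form GCGTG was not searched, so these counts cover only part of that element. The motif CCGGAAG, bound by GABP and other ETS factors, stood in 2 windows, of Idh3g and Mpc1 (5.13%), and in 6.91% of all windows. The motif GCGCATGC of nuclear respiratory factor 1 stood in 2 windows, both of Ogdh, and in 2.26% of all windows. The motif TCAAGGTCA of oestrogen-related receptors stood in none of the 39 and in 0.387% of all windows. A match is a string of letters in this window and not a bound site.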

How the data were processed

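The deposited scanner files hold spot intensity from Agilent Feature Extraction 11.0.1.1, background-subtracted and not scaled between arrays, per the file headers. The deposited series table holds a linear intensity; the steps that made it are not given in the sources used here, its columns have medians of 45.1 to 46.4, and it served only as an alternative. The deposited flags for outlier spots and for spots well above background were used as filters (unit: other), and 99 to 179 spots per array were left out.

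Here log2 was taken of the intensity, each array had the 75th percentile of its 59305 spots other than controls subtracted, and spots were averaged per probe. Of 55681 probes, 37 lacked a value and 29479 were well above background on at least 3 of 16 arrays. Each gene was represented by its brightest probe. Probes were named through RefSeq transcripts (27656 probes, 20972 genes). The array design may follow an older assembly, so no probe coordinates are given.

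Days were compared with limma 3.58.1 (R 4.3.3, statmod 1.5.0), fitting day and slide as fixed effects and blocking on RNA sample through an estimated correlation (0.448, 11 residual and 2.45 prior degrees of freedom), 2-sided, with Benjamini-Hochberg adjustment over 22145 features per comparison. Slide 1 levels in the text have the fitted slide term removed. Precision is limited by how few RNA samples there were.

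The members and gene lists were chosen with earlier results of these data known. Every member is accounted for; all samples' values are given for up to 4 called members per direction and comparison, or the 2 with the smallest p where none passed, and up to 3 related genes per direction are named. Values of further members were given after they were seen. Alternatives were the replicate block, slide treatments, background correction, normalization, scaling, filters, probe averaging, the series table and each RNA sample left out. Normexp used the median spot signal, because no mean signal column was present. Summaries used Python 3.11.15 with pandas 2.3.3 and NumPy 2.4.6, and plots Matplotlib 3.10.9.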

Additional observations from a re-analysis of the deposited data

Results flagged for a closer look

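With 4 RNA samples a group, days 0 and 14 were searched for a sample far from the other 3 in each of the 32 genes, which makes 64 groups. Chance marks about 1 in 20 groups. Only 2 were marked, both at day 14. For Pdhx, which tethers the E3 subunit, day 14 RNA sample 4 read 3.23 and the other 3 read 3.51 to 3.54. For Pdk3, day 14 RNA sample 2 read -2.58 and the other 3 read -2.23 to -2.18, but no day 14 array was well above background for this probe.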

How the results depend on the processing

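Counts of members called were recomputed under 12 alternatives and without each of the 14 RNA samples. No member was called at day 14 against day 0 under any of them, and of the called differences none changed direction. At day 3, the 0 higher became 2 under quantile normalization (3.22% of all features). The 1 lower became 0 within slide 1 (0.0% of all features), with the slide left out of the model (0.682%) and with no filter on dim probes (0.795%). It became 2 under scaling to the probes above background on all arrays (4.41%), and 3 under normexp (8.29%) and with those probes alone (9.04%). With the day 0 arrays of slide 1 dropped (7.07%), the 1 lower was Aco1 (-0.61, adjusted p = 0.019 in limma). Got2 was not called there (-0.12, adjusted p = 0.60). At day 7, the 5 higher became 1 within slide 1 (5.66% of all features), with the slide left out of the model (9.14%) and when the day 0 arrays of slide 1 were dropped (7.46%). They became 8 of 32 under normexp (20.9%) and 9 of 30 when only probes bright on every array were tested (27.5%). The 1 lower became 0 within slide 1 alone (3.79%), 2 with the replicate block (7.86%), normexp (11.3%), probes above background on all arrays (13.2%) or the series table (8.9%), 3 under quantile normalization (8.87%) and 4 under scaling to those probes (12.2%). From day 3 to day 7, the 1 higher became 0 within slide 1 alone (0.0% of all features). From day 7 to day 14, the 0 higher became 1 with no slide term (8.02%) and without the slide 1 arrays of day 0 (12.6%). The 1 lower there became 2 under quantile normalization (1.49%), 3 without the slide 1 arrays of day 0 (6.31%) and with the series table (2.2%), and 7 under normexp (12.4%). Over the 4 days, the 2 became 1 with no filter (3.92%), 3 under scaling to those probes (15.8%), with no slide term and without the slide 1 arrays of day 0 (23.9% in both), 5 under quantile normalization (16%) and the series table (17.6%), and 6 under normexp (28.4%) and with those probes alone (37.3%). The causes were not tested.

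Without single RNA samples, the counts ranged from 0 to 3 in each direction at day 3. The share of all features there ranged from 0.0135% to 3.8% higher and from 0.0316% to 4.57% lower. At day 7 the counts were 1 to 10 higher and 0 to 2 lower, beside 0.235% to 17.7% and 0.248% to 9.05%. From day 7 to day 14 they were 0 to 1 lower, beside 0.00903% to 3.39%. Over the 4 days they were 1 to 7, beside 0.357% to 21.3%. From day 3 to day 7 they were 1 higher and 0 lower throughout, beside 0.0858% to 0.899% and 0.0361% to 0.429%. Without day 0 RNA sample 1 or 2, 1 RNA sample alone sets the slide term and the array correlation was taken from all samples. Deviations of RNA samples with the same number correlated at -0.15 to 0.17 in 19 pairs, 5 of them over 0.1. Of the 14 samples, 7 correlated best with their own number. How many would do so by chance was not worked out, and the design does not speak to it. As not every pair was over 0.1, the numbers were not taken as pairs, and whether they pair the samples is undecided. With the replicate block, 6 members were higher and 2 lower at day 7, beside 14.8% and 7.86% of all features. Normexp used the median spot signal. Signals near background limit Pdpr and Pdk3.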
